A study of Homo sapiens with 4 samples.

Results

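The mitochondrial ribosomal protein genes were taken as all symbols that begin with *MRPL* or *MRPS*, go on with a number and end there or with 1 letter from A to C. The count table held 78 of them among 28278 gene symbols, 49 *MRPL* and 29 *MRPS*. All 78 passed the filter on low counts and were among the 15150 genes tested. By the labels the RNA came from HepG2 cells, a hepatocellular carcinoma line, that carried Cas9 and a guide RNA from a lentivirus. The control group carried a control guide, and the other group carried a guide against *USP22*, the gene of a ubiquitin-specific protease that removes ubiquitin from histone H2B and other proteins. Both groups were treated with Sorafenib, a multikinase inhibitor, for 24 h, and each had 2 libraries of polyA RNA. The *USP22* line came from 1 guide and puromycin selection after infection, no clone is named, and a pool of this kind can hold cells with different edits. They also do not say whether the 2 libraries of a group came from separate cultures, so p-values measure only the spread between these libraries, which may be technical.

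Mitochondria keep a small genome of their own and translate its mRNAs, all of which code for subunits of the respiratory chain and ATP synthase, on their own ribosome, the mitoribosome. The RNA of this ribosome is made inside the organelle, whereas all of its proteins are encoded in the nucleus, made on cytosolic ribosomes and imported. Some of these proteins have relatives in bacterial ribosomes, and others were added in mitochondria. The large subunit forms peptide bonds and the small subunit binds the mRNA. Loss of such proteins impairs respiration, and rapidly growing tumour cells commonly hold high levels of their mRNAs.

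The libraries held between 62030307 and 64728272 counts. In the libraries labelled sgUSP22 the *USP22* transcript was higher rather than lower, with 16450 and 16537 counts in control and 20279 and 20368 counts in sgUSP22 libraries (log2 fold change 0.22, SE 0.034, adjusted p = 0.000394), so every direction here follows the label. A guide acts on DNA, and a transcript can stay when its protein is lost. The paper reports that it checked knockout efficiency by Western blot, which measures protein, whereas the value here is on RNA. Of 20 hepatocyte markers, 11 were listed at 0 in all 4 libraries, *ALB*, *APOA1*, *APOB* and *TTR* among them, and the 20 together came to between 2.12 and 3.67 CPM, that is, counts scaled by the size of each library. Of 8 mesenchymal markers none was at 0 throughout, and their sum lay between 1931 and 2085 CPM. They were not alike, and the largest counts were those of *VIM*, *COL3A1* and *FN1*. *COL1A2* had 0 and 0 counts in control and 7 and 0 in sgUSP22 libraries, and *THY1* had 12 and 21 against 31 and 17. Of 5 haematopoietic markers 3 were at 0 in all libraries. The labelled cell line was thus not borne out by its hepatocyte markers, and the counts cannot settle which cells these were.

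In sgUSP22 cells, mitochondrial ribosomal protein mRNAs were more often lower than higher, by small amounts. The 78 genes together took 5153 and 5185 CPM in control and 4724 and 4626 CPM in sgUSP22 libraries, or 0.506% and 0.509% against 0.48% and 0.472% of all counts, and the groups did not overlap. By edgeR's quasi-likelihood test, 34 genes (43.6%) were lower and 12 (15.4%) were higher at a Benjamini-Hochberg adjusted p-value below 0.05, beside 25.8% lower and 26.8% higher among all genes tested. For the other 32 the test did not pass. With library size alone in place of TMM scaling the counts were 30 lower and 17 higher, and the shares of all genes under that scaling are not given here. The median log2 fold change of the 78 genes was -0.106, beside 0.001 over all genes tested, and by library the median difference from the control mean was -0.098 and -0.120 in the 2 sgUSP22 libraries. Bulk RNA cannot tell less RNA per cell from fewer cells of a kind.

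Large changes were few. With a fold change of at least 1.5 as well, the threshold of the study, 1 gene was lower (*MRPL43*) and 3 were higher (*MRPL57*, *MRPS31* and *MRPL46*), where the share of all genes was 7.25% and 8.88%. Both sgUSP22 libraries lay below both control libraries for 43 of the 78 genes and above them for 19, where the shares of all genes were 37.6% and 38.3%. The single fold changes ran from -0.91 to 0.70 on the log2 scale. The plot of fold changes by subunit shows all of them.

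**Figure D1:**
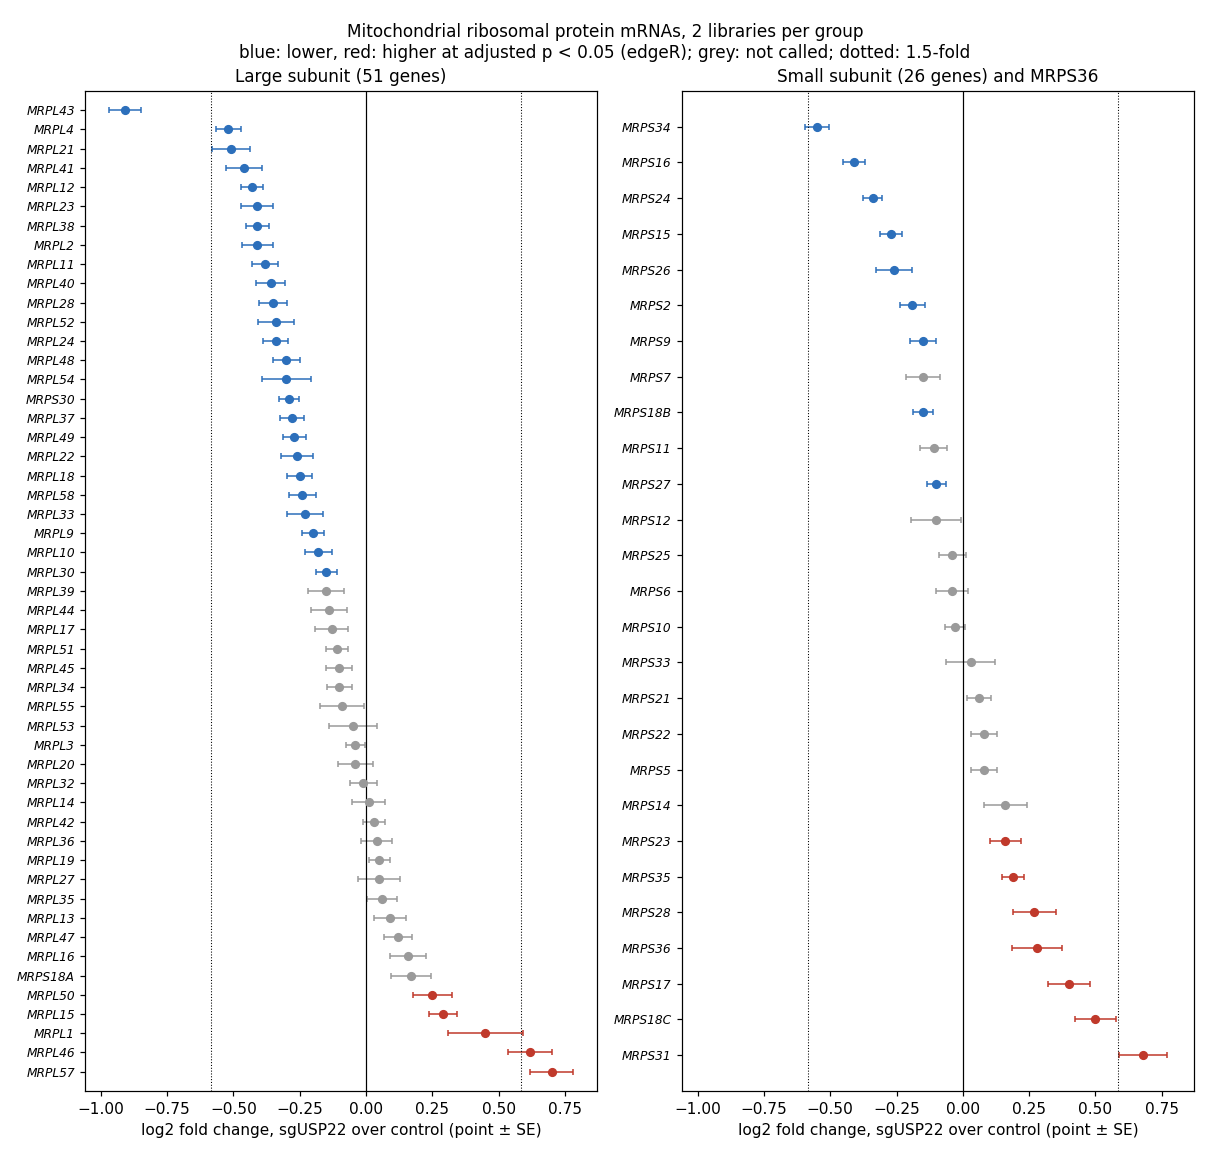
Log2 fold change of each gene, sgUSP22 over control, on the x axis with its standard error as a bar (2 libraries per group), for 51 genes of the large subunit (left) and for 26 genes of the small subunit with *MRPS36* (right). Blue points are lower and red points higher at an adjusted p-value below 0.05, grey points are not called, and the dotted lines mark 1.5-fold. *MRPL43* alone lies beyond the left line, and *MRPL57*, *MRPL46* and *MRPS31* lie beyond the right one.

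Symbol and place in the ribosome differ for 3 genes. *MRPS30* and *MRPS18A* encode proteins of the large subunit, and the product of *MRPS36* is no ribosomal protein but a part of the oxoglutarate dehydrogenase complex of the citric acid cycle. With these placed where they belong, 25 of 51 large subunit genes were lower and 5 higher, with a median of -0.150. Of 26 small subunit genes 9 were lower and 6 higher, with a median of -0.037. The shares lower and higher were 49% and 9.8% in the large and 34.6% and 23.1% in the small subunit, beside 25.8% and 26.8% of all genes tested. With trends on GC content and transcript length removed, the medians were -0.132 and -0.023. The 51 genes summed to 3256 and 3270 CPM in control and 2923 and 2871 CPM in sgUSP22 libraries, and the 26 genes to 1882 and 1899 against 1782 and 1738 CPM. The difference between the subunits was not tested.

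Within the large subunit, 30 genes with bacterial relatives held 14 lower and 2 higher (median -0.120). The 21 genes grouped as particular to mitochondrial ribosomes held 11 lower and 3 higher (median -0.244). In the small subunit, the 16 genes with bacterial relatives held 5 lower and 3 higher (median -0.070), and the 10 others held 4 lower and 3 higher (median -0.006). In the order given, the shares lower and higher were 46.7% and 6.67%, 52.4% and 14.3%, 31.2% and 18.8%, and 40% and 30%. Those of all genes tested were 25.8% and 26.8%. With the same trends removed, the medians in that order were -0.079, -0.141, 0.002 and -0.039. This grouping placed *MRPS18A* and *MRPS18B* outside the genes with bacterial relatives, although both are copies related to a bacterial protein. The counts, shares and medians by group depend on that choice.

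*MRPL43*, which encodes a large subunit protein found only in mitochondria, fell most. It lies on the minus strand of chromosome 10 at chr10:100969458-100987515 (hg38, GENCODE v44). It had 3160 and 3461 counts in control and 1926 and 1806 counts in sgUSP22 libraries, which is 53.7 ± 2.58 against 28.6 ± 0.943 CPM (SD, n = 2). Neither sgUSP22 library came near the control libraries. The log2 fold change was -0.91 (SE 0.06, adjusted p = 1.74e-06), a level 0.534 times that of control. The annotated gene overlaps *SEMA4G* on the other strand, which had 2 and 20 counts in control and 32 and 26 counts in sgUSP22 libraries, and *TWNK*, also on the other strand, with 1833 and 1801 against 1973 and 1978 counts. Their part in the difference was not tested.

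Among the other lowered genes, *MRPS34* encodes a small subunit protein of mitochondria and lies at chr16:1771890-1773150. It had 8956 and 9771 counts in control and 6977 and 6532 counts in sgUSP22 libraries (log2 fold change -0.55, SE 0.045, adjusted p = 6.81e-06). *MRPL4*, at chr19:10251901-10260055, encodes the relative of bacterial protein L4 and had 5622 and 5836 counts against 4387 and 4035 (-0.52, SE 0.047, adjusted p = 1.15e-05). In both genes, also chosen as among the most lowered, the lower control library stood well above the higher sgUSP22 library. With trends on GC content and transcript length removed, the values were smaller, at -0.32 (adjusted p = 0.000154) for *MRPS34* and -0.31 (adjusted p = 0.000278) for *MRPL4*.

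*MRPL21* had 2420 and 2733 counts in control and 2012 and 1817 counts in sgUSP22 libraries (log2 fold change -0.51, SE 0.072, adjusted p = 0.000243). *MRPL41*, whose product belongs to the large subunit and has also been described as a regulator of cell death, had 2008 and 2164 counts against 1629 and 1571 (-0.46, SE 0.068, adjusted p = 0.0003). The protein of *MRPL12* forms the stalk of the large subunit, where translation factors dock, and is also known to bind the mitochondrial RNA polymerase. Its mRNA had 6938 and 7090 counts against 5637 and 5354 (-0.43, SE 0.04, adjusted p = 1.54e-05). The control and sgUSP22 libraries did not overlap in any of these 3 genes, which were chosen as among the most lowered. Of all genes tested, 37.6% had both sgUSP22 libraries below both control libraries. With the same trends removed, *MRPL41* was at -0.19 (adjusted p = 0.0343) and *MRPL12* at -0.20 (adjusted p = 0.00176).

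The rise was largest for *MRPL57*, which encodes a short protein of the large subunit, at chr13:21176658-21179084. It had 907 and 896 counts in control and 1583 and 1513 counts in sgUSP22 libraries, which is 14.6 ± 0.363 against 23.8 ± 0.461 CPM (SD, n = 2; log2 fold change 0.70, SE 0.082, adjusted p = 6.5e-05). *MRPS31*, at chr13:40729128-40771190, encodes a small subunit protein of mitochondria and had 662 and 654 counts against 1114 and 1114 (0.68, SE 0.091, adjusted p = 0.000162). The 2 libraries of each group were almost level in both genes. A pseudogene of the latter, *MRPS31P5*, was listed with 162 and 224 counts in control and 241 and 293 counts in sgUSP22 libraries, so reads may have been split between the copies.

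*MRPL46*, a large subunit gene at chr15:88459477-88467390, had 1189 and 1086 counts in control and 1884 and 1802 counts in sgUSP22 libraries (log2 fold change 0.62, SE 0.083, adjusted p = 0.000164). It dropped below 1.5-fold without control replicate 2 (0.54) or without sgUSP22 replicate 1 (0.58). *MRPS11*, which encodes a small subunit protein, starts 63 bases away on the other strand and had a log2 fold change of -0.11 (adjusted p = 0.104). Thus of these neighbours, 1 in each subunit, only the first passed the test.

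*MRPS18C* had 1203 and 1187 counts in control and 1754 and 1807 counts in sgUSP22 libraries (log2 fold change 0.50, SE 0.076, adjusted p = 0.000388). *MRPS17*, whose bacterial relative binds ribosomal RNA, had 1332 and 1310 counts against 1962 and 1731 (0.40, SE 0.08, adjusted p = 0.002). In both, chosen as among the most raised, each sgUSP22 library was above each control library, as in 38.3% of all genes tested. The annotated *MRPS17* gene overlaps *NIPSNAP2* on the same strand. *NIPSNAP2* had 9810 and 9779 counts in control and 9690 and 9566 counts in sgUSP22 libraries. *MRPS18C* overlaps *ABRAXAS1* on the other strand (log2 fold change -0.51, adjusted p = 0.00615). The part of these overlaps in the values was not tested. *MRPL1* had 747 and 566 counts against 1002 and 898 (0.45, SE 0.14, adjusted p = 0.0199), and its control libraries lay far apart. Its call was lost without control replicate 2 (0.25, adjusted p = 0.124), without sgUSP22 replicate 1 (0.37, adjusted p = 0.096), without a filter on low counts (adjusted p = 0.0878) and with GC and length trends removed (0.35, adjusted p = 0.0596). Without control replicate 1 it was 0.68, past 1.5-fold.

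**Figure D2:**
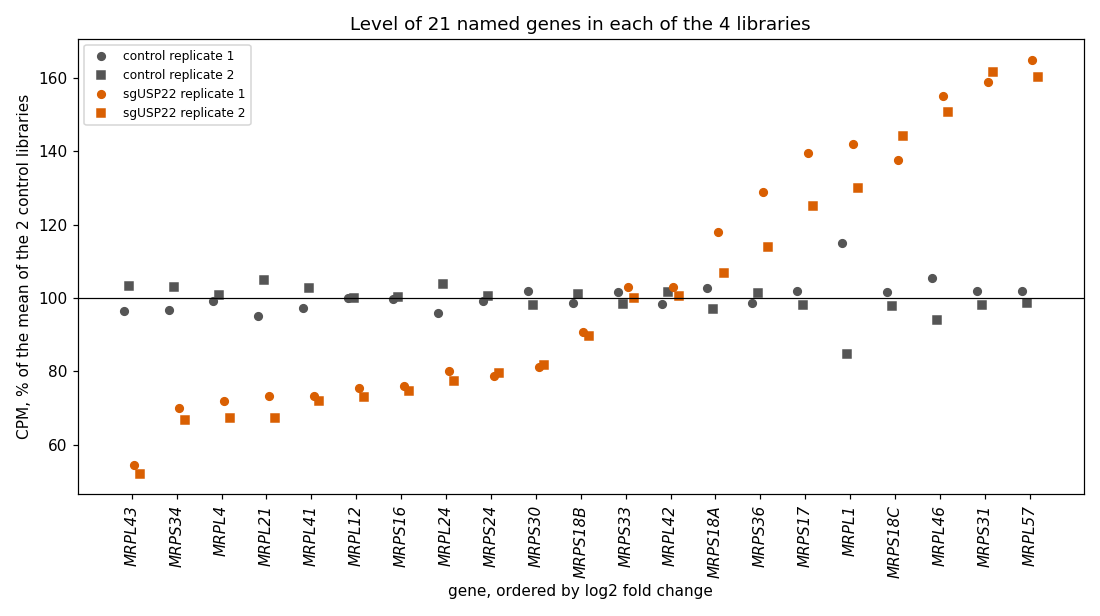
Level of 21 named genes in each library, as CPM in percent of the mean of the 2 control libraries (y axis), ordered on the x axis by log2 fold change. Grey marks are control and orange marks sgUSP22 libraries, circles replicate 1 and squares replicate 2. *MRPL43* sits lowest in both sgUSP22 libraries, *MRPS33* and *MRPL42* lie near 100%, and the control libraries of *MRPL1* are spread widest.

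The 3 *MRPS18* genes, copies related to 1 bacterial protein, had unlike values. *MRPS18A*, in the large subunit, had 1832 and 1763 counts in control and 2264 and 2016 counts in sgUSP22 libraries (log2 fold change 0.17, adjusted p = 0.0752). *MRPS18B* had 10380 and 10879 counts against 10289 and 9966 (-0.15, SE 0.037, adjusted p = 0.00666), and *MRPS18C* rose, as given above. So 1 copy was lower, 1 was higher and for 1 the test did not pass. With trends on GC content and transcript length removed, *MRPS18B* was at -0.03 (adjusted p = 0.466) and *MRPS18A* at 0.34 (adjusted p = 0.00301).

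Of the remaining genes with a place other than their symbol says, *MRPS30* had 11874 and 11710 counts in control and 10218 and 10086 counts in sgUSP22 libraries (log2 fold change -0.29, SE 0.037, adjusted p = 0.000109). *MRPS36* had 912 and 963 counts against 1289 and 1115 (0.28, SE 0.094, adjusted p = 0.0305). The first was lower, as were 25 of the 51 large subunit genes in all. The second was higher, but its call was lost with DESeq2 (adjusted p = 0.0727), without sgUSP22 replicate 1 (0.17, adjusted p = 0.213) and with GC and length trends removed (0.13, adjusted p = 0.258).

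Levels differed more between genes than between groups. Per kb of the annotated transcript, *MRPS24* was the most abundant with a mean of 231.2 CPM per kb, followed by *MRPL24* with 128.5 and *MRPS34* with 128.0 CPM per kb. *MRPS24* had 10427 and 10816 counts in control and 8899 and 8845 counts in sgUSP22 libraries (log2 fold change -0.34, SE 0.036, adjusted p = 3.8e-05). *MRPL24* had 7433 and 8235 counts against 6678 and 6349 (-0.34, SE 0.047, adjusted p = 0.00018). The 3 most abundant genes by this measure were thus all lower in both sgUSP22 libraries. With GC and length trends removed, *MRPS24* was at -0.14 (adjusted p = 0.0104) and *MRPL24* at -0.18 (adjusted p = 0.00793).

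The least abundant were *MRPS33* with 3.11, *MRPL42* with 6.01 and *MRPL57* with 8.59 CPM per kb. *MRPS33* had 807 and 796 counts in control and 881 and 842 counts in sgUSP22 libraries (log2 fold change 0.03, SE 0.093, adjusted p = 0.845). *MRPL42* had 5553 and 5874 counts against 6265 and 6015 (0.03, SE 0.041, adjusted p = 0.643). Their annotated transcripts are long, 15557 bases for *MRPL42*, and a shorter form in use would raise the value per kb. The rank of levels therefore depends on which transcript is taken.

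The fold changes differed by base composition. Below 45% GC in the annotated transcript, 4 of 26 genes were lower and 8 higher (median log2 fold change 0.07). From 45% to 55% GC, 16 of 33 were lower and 4 higher (median -0.13). At 55% GC or more, 14 of 19 were lower and 0 higher by edgeR and by DESeq2 (median -0.34), with 1 higher at an unadjusted p below 0.05. Other genes had medians of 0.14, -0.03 and -0.14 in the same classes, above the mitochondrial ribosomal protein genes in each. Over all classes together, 25.8% of the genes tested were lower and 26.8% higher. The shares of other genes called within each class are not given here, so the counts by class have no like share beside them. Across genes, which are not independent replicates and share the 4 libraries, Spearman's rho between GC content and fold change was -0.61 over the 78 genes and -0.25 over 14530 others.

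Transcript length and abundance moved with the fold change as well. The median transcript of the 78 genes was 1242 bases long against 3108 bases in other genes, while the median GC content was 48.2% against 48.9%. By length, the median of the 26 genes under 1000 bases was -0.17 beside -0.20 in other genes of that length, that of the 34 genes in the next class of length, from 1000 bases, was -0.15 beside -0.11, and that of the 18 longest genes was -0.00 beside 0.06. In the first 2 classes the medians of these and other genes were thus close. Spearman's rho with length was 0.28 over the 78 genes and 0.23 over others, and with abundance -0.39 against -0.02. Once per-library trends on GC content and length were removed, 26 genes were lower and 14 higher, with a median of -0.074 beside -0.017 over all genes. In that fit 24 of the 34 lower and 8 of the 12 higher genes kept their call. The shares of all genes called in it are not given here, so these counts have no like share beside them.

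**Figure D3:**
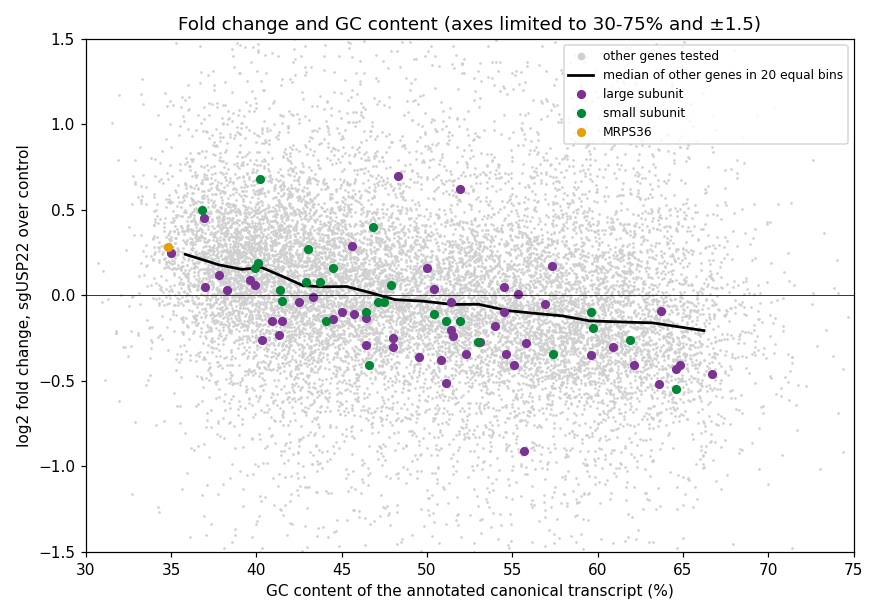
GC content of the annotated transcript in percent (x axis) and log2 fold change, sgUSP22 over control (y axis), for 78 mitochondrial ribosomal protein genes (coloured points) and 14530 other genes (grey points, with their median in 20 equal bins as a black line), drawn within axis limits of 30% to 75% GC and 1.5 in either direction. Points of the large subunit (purple) and the small subunit (green) slope down to the right. At 55% GC or more, 14 of 19 are called lower, with a median of -0.34 beside -0.14 in other genes of that class. The share of other genes called there is not given here. The black line of other genes also falls, from 0.240 in the bin of lowest GC content to -0.206 in that of the highest.

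Gene position was examined next, since the genes are scattered over the genome. Genes of at least 1 log2 CPM within 5 Mb of *MRPL43* had a median log2 fold change of -0.49 (81 genes), and those around *MRPS16* -0.47 (58 genes). Both genes lie on chromosome 10 beyond 40 Mb, where the 325 other genes had a median of -0.41. *MRPS16*, whose loss causes a disorder of the respiratory chain in children, had 5547 and 5696 counts in control and 4550 and 4384 counts in sgUSP22 libraries (log2 fold change -0.41, SE 0.042, adjusted p = 2.66e-05), close to the median of its surroundings. *MRPL43* was below its own.

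Around *MRPL57* the median of 22 neighbours was 0.42. It was 0.23 around *MRPS18C* (30 genes), 0.20 around *MRPL1* (34 genes), 0.13 around *MRPS31* (35 genes) and -0.01 around *MRPL46* (45 genes). For *MRPS34* and *MRPL4* the neighbours stood at -0.19 (122 genes) and -0.20 (163 genes). All of these named genes other than *MRPS16* thus differed from zero by more than their neighbourhoods did. Without *MRPL43* and *MRPS16* on chromosome 10 and *MRPS35* on chromosome 12 (20 to 40 Mb, other genes at 0.39), the other 75 genes had a median of -0.105. Chromosome 7 from 10 to 40 Mb holds none of the 78. So few genes left out could hardly move a median, so nothing is concluded from it. The part of the neighbourhood in these values was not tested.

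Of the 78 genes, 26 have a tested protein-coding gene on the other strand whose start lies within 1000 bases. Both partners were lower in 2 pairs, *MRPL49* with *FAU* and *MRPL18* with *TCP1*. Both were higher in 2 pairs, *MRPL57* with *SKA3* (log2 fold changes 0.70 and 1.14) and *MRPL50* with *ZNF189* (log2 fold change 0.25 beside a level 2.82 times that of control). The partners were called in opposite directions in 2 pairs, *MRPL11* with *PELI3* (-0.38 and 0.65) and *MRPS18B* with *PPP1R10* (-0.15 and 0.38). *TWNK*, which encodes the helicase of mitochondrial DNA and starts 148 bases from *MRPL43*, was at 0.04 (adjusted p = 0.63) beside -0.91. In these few pairs a nearby start went with like and with unlike changes. Among all genes tested 25.8% were lower and 26.8% higher, and such pairs were not counted over all genes. With GC and length trends removed, *MRPL50* was at 0.02 (adjusted p = 0.852) and *MRPS18B* at -0.03 (adjusted p = 0.466).

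To see what the genes share in sequence, the RefSeq promoters (GRCh38.p14, 250 bases before to 50 after each start) were searched on both strands, and 69 of the 78 genes had an entry. The core of the ETS family site, CCGGAAG, was found in 29 of 69 (42%) against 10.7% of all 27305 promoters. GABP, an ETS factor, is a known regulator of nuclear genes for mitochondria. The YY1 core, AAGATGGC, was found in 20 (29%) against 3.03%, and the NRF1 core, GCATGCGC, in 6 (8.7%) against 3.27%. The SP1 box, GGGCGG, was found in 42 (60.9%) against 44.6%, whereas the TATA box, TATAAA, was found in 2 (2.9%) against 12%. Matches of different motifs overlapped in 1 promoter.

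Stretches of 120 bases before and 30 after the start of the lowered *MRPL43* and *MRPS34* and the raised *MRPL46* and *MRPS31* are given here to set out what promoters of genes with opposite changes hold. Capitals mark ETS cores, on either strand, in *MRPL43*, *MRPS34* and *MRPS31*, and the YY1 core in *MRPL46*. All 4 are on the minus strand, at chr10:100987468-100987617, chr16:1773105-1773254, chr15:88467359-88467508 and chr13:40771161-40771310, and are written 5′ to 3′ along the gene.
MRPL43: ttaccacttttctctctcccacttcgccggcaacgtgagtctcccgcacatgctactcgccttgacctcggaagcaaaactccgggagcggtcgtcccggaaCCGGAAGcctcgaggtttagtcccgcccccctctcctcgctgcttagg
MRPS34: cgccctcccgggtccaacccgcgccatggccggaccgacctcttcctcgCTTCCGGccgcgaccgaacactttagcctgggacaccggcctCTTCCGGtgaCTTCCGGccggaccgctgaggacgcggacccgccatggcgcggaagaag
MRPL46: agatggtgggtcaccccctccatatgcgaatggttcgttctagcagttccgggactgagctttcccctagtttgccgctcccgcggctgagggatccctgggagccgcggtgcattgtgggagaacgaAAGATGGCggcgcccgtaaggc
MRPS31: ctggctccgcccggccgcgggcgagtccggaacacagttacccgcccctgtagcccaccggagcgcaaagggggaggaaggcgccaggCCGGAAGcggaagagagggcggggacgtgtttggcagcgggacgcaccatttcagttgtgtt

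The window of *MRPS34* held 3 ETS cores, those of *MRPL43* and *MRPS31* held 1 each, and that of *MRPL46* held none. The motif was thus present in genes that fell and in genes that rose. Over all genes with an entry, the ETS core was in 13 of 30 lower genes (43.3%), 3 of 9 higher genes (33.3%) and 13 of 30 genes that were not called (43.3%), and the YY1 core was in 23.3%, 22.2% and 36.7%. These are matches of letters and do not show that a factor was bound. The mRNA of *YY1* had 14023 and 14538 counts in control and 15249 and 15518 counts in sgUSP22 libraries (log2 fold change 0.03, adjusted p = 0.534). *GABPA*, the DNA-binding part of GABP, had 1970 and 2002 counts against 2504 and 2397 (0.22, SE 0.059, adjusted p = 0.00959). With GC and length trends removed, *GABPA* lost its call (-0.04, adjusted p = 0.629) and *YY1* was at -0.09 (adjusted p = 0.0416).

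A few mitoribosomal proteins have symbols of another kind. Of 5 such genes 4 were lower (80%, beside 25.8% of all genes) and 1 was higher (20%, beside 26.8%), with a median of -0.404. *GADD45GIP1*, whose product sits in the large subunit, had 7153 and 7763 counts in control and 5801 and 5225 counts in sgUSP22 libraries (log2 fold change -0.51, SE 0.052, adjusted p = 2.46e-05). *CHCHD1* had 1366 and 1550 counts against 1025 and 926 (-0.66, SE 0.091, adjusted p = 0.000206), and it is on chromosome 10. The median of its neighbours within 5 Mb was -0.49 (53 genes). *AURKAIP1* had 4687 and 4590 counts against 3814 and 3590 (-0.40, adjusted p = 7.88e-05), and *DAP3*, a GTP-binding protein of the small subunit, had 14016 and 14255 against 13027 and 12620 (-0.22, adjusted p = 0.000459). *PTCD3* was the higher one, with 5549 and 5336 counts against 6275 and 6243 (0.12, adjusted p = 0.041), a call lost with DESeq2 (adjusted p = 0.0784), without a filter (adjusted p = 0.0744), and without control replicate 2 (0.08, adjusted p = 0.27), sgUSP22 replicate 1 (adjusted p = 0.126) or sgUSP22 replicate 2 (adjusted p = 0.137). With GC and length trends removed, *PTCD3* turned to -0.05 and *AURKAIP1* was at -0.16 (adjusted p = 0.021).

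Among 27 factors that assemble the mitoribosome, 11 were lower (40.7%, beside 25.8% of all genes tested) and 5 higher (18.5%, beside 26.8%), with a median of -0.093. *DDX28*, an RNA helicase of large subunit assembly, had 308 and 364 counts in control and 806 and 867 counts in sgUSP22 libraries (log2 fold change 1.24, SE 0.12, adjusted p = 2.25e-05). *MTERF4*, which recruits a methyltransferase to the ribosome, had 1033 and 998 counts against 1916 and 1826 (0.80, SE 0.078, adjusted p = 1.99e-05), and *MRM2*, a methyltransferase of the large ribosomal RNA, had 1378 and 1349 against 2301 and 2128 (0.62, adjusted p = 6.03e-05). *MTG1*, a GTPase of late large subunit assembly on chromosome 10, had 2048 and 2092 counts against 1238 and 1383 (-0.74, SE 0.08, adjusted p = 4.25e-05). Large subunit assembly genes thus lay at both ends of this list. Genes within 5 Mb of *MTG1* had a median of -0.68 (12 genes), and the part of this neighbourhood was not tested.

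Of 17 mitochondrial translation factors tested, 4 were lower and 4 higher (23.5% each), with a median of -0.002. These shares were near the 25.8% and 26.8% of all genes tested. *C12orf65*, a release factor for stalled ribosomes, had 813 and 779 counts in control and 1396 and 1616 counts in sgUSP22 libraries (log2 fold change 0.84, SE 0.1, adjusted p = 8.15e-05). *TUFM*, the elongation factor that brings tRNA to the mitoribosome, had 27989 and 31289 counts against 25269 and 23014 (-0.37, SE 0.05, adjusted p = 0.000151), and *MRRF*, which recycles it, had 2806 and 2851 against 2294 and 2268 (-0.39, adjusted p = 0.000192).

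Of 18 genes of mitochondrial genome expression and biogenesis, 4 were lower (22.2%) and 6 higher (33.3%), again near the shares of all genes, with a median of 0.056. *POLRMT*, the mitochondrial RNA polymerase, had 6648 and 7113 counts in control and 4676 and 4496 counts in sgUSP22 libraries (log2 fold change -0.66, SE 0.043, adjusted p = 1.52e-06). The coactivators of mitochondrial biogenesis had *PPARGC1A* at 610 and 598 counts against 1088 and 1053 (0.75, SE 0.094, adjusted p = 0.000106) and *PPARGC1B* at 783 and 817 against 1641 and 1463 (0.88, SE 0.088, adjusted p = 2.54e-05). The third coactivator of the family, *PPRC1*, had 6151 and 6558 counts against 4701 and 4798 (-0.50, SE 0.044, adjusted p = 1.07e-05). It was lower where *PPARGC1A* and *PPARGC1B* were higher. It also lies on chromosome 10, where genes within 5 Mb of it had a median of -0.53 (76 genes), close to its own value. The part of the neighbourhood in this value was not tested. The mRNAs and ribosomal RNAs encoded in the mitochondrial genome are not analysed here.

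**Figure D4:**
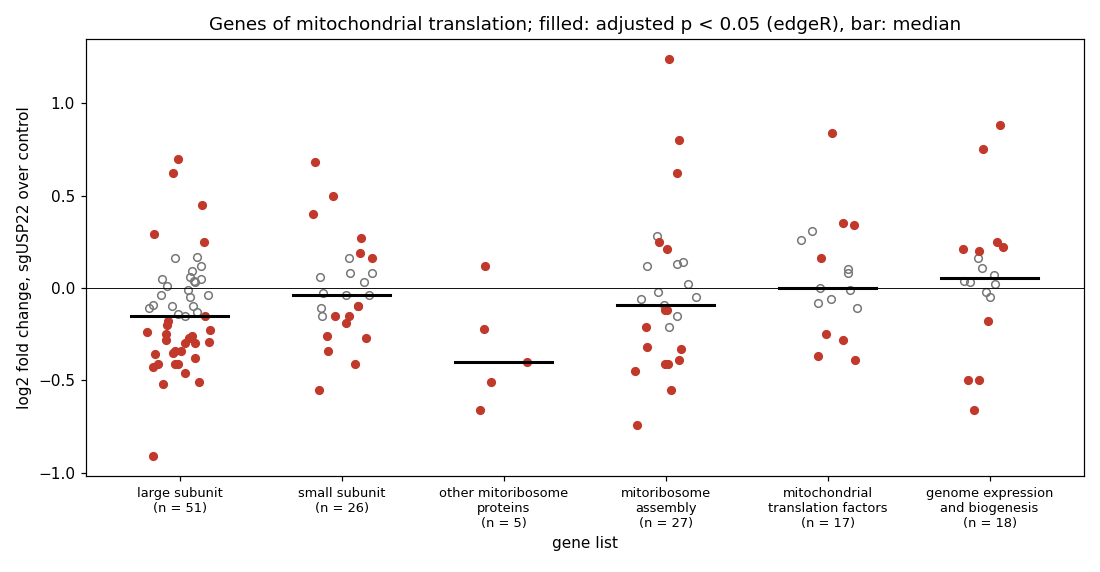
Log2 fold change, sgUSP22 over control (y axis), of the genes of 6 lists (x axis, with the number of genes tested). Each point is a gene, filled points have an adjusted p-value below 0.05, open points do not, and bars are medians. The medians run from -0.404 for mitoribosomal proteins with other symbols to 0.056 for genome expression and biogenesis.

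For comparison, 76 of 77 genes of cytosolic ribosomal proteins were lower by edgeR (98.7%, beside 25.8% of all genes tested). By edgeR, at an unadjusted p below 0.05 or by DESeq2, 0 were higher, beside 26.8% of all genes tested by edgeR. Their median was -0.416, with a range from -0.92 to -0.08. With GC and length trends removed, the median was -0.285. They took 5.88% and 5.86% of all counts in control and 4.68% and 4.52% in sgUSP22 libraries. The mitochondrial set therefore had both directions where the cytosolic set had 1. The difference between the 2 sets was not tested.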

How the data were processed

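RNA-seq was analysed in 4 libraries of Sorafenib-treated HepG2 cells, 2 control and 2 labelled sgUSP22. Reads were mapped by the authors with HISAT2 2.2.1 (hg38), who deposited gene counts from StringTie 2.2.1, which derives them from read coverage. Annotation, strand setting and read length are not given in the sources used here, so reads of overlapping genes cannot be told apart, and those of near-identical copies (*MRPL42P5*, *MRPL45P2*, *MRPS31P5*, the read-through *URGCP-MRPS24*) may be split. The annotated gene of 31 members overlaps another tested gene. No column was left unassigned.

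All genes were fitted together in R 4.3.3 with edgeR 4.0.16 (TMM, filterByExpr with a minimum count of 10, glmQLFit, glmQLFTest), with Benjamini-Hochberg adjustment over 15150 genes. The standard error (SE) was taken as the size of the log2 fold change over the root of its F statistic. CPM are counts per TMM-scaled library size. DESeq2 1.42.0 was an alternative, beside RLE factors, library size alone, other filters, a replicate block, a test against 1.5-fold, removal of lowess trends (span 0.3) on GC content and length, and leaving out each library. Scripts were tested on simulated data. Recovery was judged there on genes of at least 10 CPM, as it was lower over genes of all abundances and first missed the limit set for it.

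Positions, lengths and GC content are those of GENCODE v44 (hg38, canonical transcript), matched for 26193 of 28278 symbols, and promoters are from RefSeq. Within groups, libraries differed beyond sampling noise (mean chi-square per gene 7.91 and 8.44).

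Members, lists and tests were chosen with earlier results of these data known. Named were members past 1.5-fold, the 6 most lowered and 6 most raised, the 3 most and least abundant per kb, the *MRPS18* copies, *MRPS30*, *MRPS36*, members on chromosome 10 beyond 40 Mb (a region of chromosome 7 held none), all 5 mitoribosomal proteins with other symbols, and up to 4 genes of each further list. GC and length classes, neighbours, start pairs, overlaps, motifs, promoters shown, the cytosolic set and *TUFM*, *MRRF*, *PPRC1*, *YY1* and *GABPA* were chosen after values were seen and received no test of their own beyond the fit.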

Additional observations from a re-analysis of the deposited data

How the results depend on the processing

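Over other settings the number of lowered genes ran from 26 (GC and length trends removed) to 35, against 34, and of raised genes from 8 (no filter) to 17 (library size alone), against 12. The shares of all genes called under these settings are not given here. Of 245 comparisons of the 35 named genes with their main value under other settings, 232 kept direction and call, as did 128 of 140 with a library left out. The median of -0.106 was -0.054 with library size alone, which moved the median of all genes to 0.053, and -0.074 with GC and length trends removed. With a library left out it ran from -0.138 to -0.080. Tested against 1.5-fold, 0 genes were higher by edgeR (1 at an unadjusted p below 0.05), against 3 by adjusted p and fold with edgeR or DESeq2. Lowered genes past 1.5-fold numbered 1 to 2 with a library left out, the second being *MRPS34* (-0.60) without control replicate 1 or sgUSP22 replicate 1. *MRPS33* (0.03) turned to -0.09 and *MRPL42* (0.03) to -0.34 (adjusted p = 0.000217) with GC and length trends removed, and *PTCD3* (0.12) to -0.05. With a library left out *MRPS33* ran from -0.01 to 0.05, with -0.001 without control replicate 2, and *MRPL42* from -0.004 to 0.05. Apart from settings that state it, the cause was not tested. *MRPS36* lost its call without filter, with trends removed and without control replicate 1, control replicate 2 or sgUSP22 replicate 1. With the replicate number as a block, 34 genes were lower (33 of them the same) and 12 higher (the same 12), with a median of -0.106. Deviations from the group mean of libraries with the same number correlated by 0.0782 over 15150 genes. With 2 libraries per group this cannot show whether libraries of the same number were handled together. Precision is limited by 2 libraries per group and, for genes of low counts, by depth.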
